A study of Mus musculus with 6 samples.

Results

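A set of 7 genes that carry T cells into the gut and hold them there was followed across 6 single-cell RNA libraries of mouse colon: the integrin genes Itga4, Itgb7, Itgae and Itga1, the chemokine receptor gene Ccr9, the retention gene Cd69 and the purinergic receptor gene P2rx7. They were taken by symbol, and each of the 7 symbols stood on 1 row of the 32285 genes in the files. Their counts of unique molecular identifiers (UMIs, 1 per captured RNA molecule) were summed over T-gated cells, with CD8 and CD4 cells apart. A T-gated cell held at least 2 UMIs over Cd3d, Cd3e, Cd3g, Trac, Trbc1 and Trbc2 and at most 1 UMI over each marker set of macrophages, dendritic cells, B cells, epithelium and stroma. The CD8 gate then took cells with Cd8a or Cd8b1 and no Cd4, and the CD4 gate those with Cd4 and neither CD8 gene. None of the 7 genes was used by these gates.

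The mice were transplant recipients. GVHD mice had received bone marrow with added spleen cells, which gives graft-versus-host disease, in which donor T cells attack the recipient, and BM mice had received bone marrow alone. Other recipients were labelled as lacking interleukin 34 (IL34KO) or as wild type (WT). Macrophages of donor origin, sorted as CD11b+ CD64+, gave 4 libraries (GVHD, BM, IL34KO and WT), and donor T cells gave 2 (IL34KO and WT). The labels name no strain, age, animal, conditioning or pooling, and do not say whether the IL34KO and WT recipients were given spleen cells. Each group was 1 library, so comparisons between groups carry no test. Exact 95% intervals, in brackets below, cover counting error only.

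Naive T cells that meet antigen in gut-draining lymphoid tissue gain integrin α4β7, the product of Itga4 and Itgb7, which binds MAdCAM-1 on gut vessels, and CCR9, which follows the chemokine CCL25. Inside the mucosa β7 can pair with αE (CD103, Itgae), which binds E-cadherin on epithelial cells, and α1 (CD49a, Itga1) pairs with β1 and binds collagen IV. CD69 removes the exit receptor S1PR1 from the surface. P2RX7 is an ion channel opened by extracellular ATP that is carried by resident T cells and by macrophages.

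Libraries held 4169 to 18360 barcodes and 43660889 to 114425913 UMIs. The GVHD and BM libraries shared 2502 barcodes, 60.01% of those of GVHD and 42.6% of those of BM, and 2486 of them had more UMIs in GVHD; they were left out of BM. Other pairs of libraries shared 5 to 75 barcodes. Il34 over all barcodes stood at 2.30 CPM (counts scaled to library size) for macrophages under the IL34KO label and 1.76 in the WT one. The T-cell libraries labelled IL34KO and WT had 1.55 and 1.18 CPM. Il34 was thus not lower under the IL34KO label. The deleted segment is not stated by the labels.

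The CD8 gate held 58 cells in GVHD, 61 in BM, 123 in the macrophage library labelled IL34KO, 52 in the WT macrophage library, 880 in the T-cell library labelled IL34KO and 1502 in the WT T-cell library. In the same order the CD4 gate held 54, 11, 82, 38, 378 and 656 cells. The macrophage libraries were not sorted for T cells, so their T-gated cells need not stand for the T cells of the colon. The gates kept Cd40lg and Zbtb7b apart, but not every gene checked. Cd40lg, the CD40 ligand of helper cells, was at 1.68 to 19.8 CPM in the CD8 gate and 87.3 to 118 CPM in the 5 larger CD4 gates. Zbtb7b, the factor that sets the CD4 lineage, was at 0 to 7.59 CPM in the CD8 gate and 8.07 to 14.2 CPM in the CD4 gate. Runx3 overlapped, at 381 to 590 CPM in the CD8 gate and 375 to 544 CPM in the 5 larger CD4 gates. So did Nkg7 (1218 to 1762 against 799 to 1639 CPM) and Eomes (50.6 to 103 against 0 to 51.5 CPM). The T-cell libraries held more macrophage-gated cells (3679 labelled IL34KO and 6726 WT) than CD8-gated and CD4-gated cells together. Summed levels of the 5 macrophage markers were 12.7 to 33.5 CPM in the CD8 gate and 16.1 to 35.4 CPM in the CD4 gate. Free RNA was measured by Lyz2, a macrophage gene, which stood at 0.645% to 3.18% of its macrophage level in the CD8 gate and 1.66% to 3.47% in the 5 CD4 gates with at least 20 cells. In the T-cell libraries CD8-gated cells had a median of 3446 (labelled IL34KO) and 3209 (WT) UMIs.

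An upstream sequence of 5 members is in the RefSeq table (GRCm38.p6). The 250 bases before the start are shown for the members that changed most in CD8 cells with an Itgae UMI (P2rx7, Ccr9 and Itga1) and for Itga4, which did not pass the test there. P2rx7 (chr5:122643677-122643926, plus strand) is the first of its 2 entries, Ccr9 lies at chr9:123766961-123767210 (plus), Itga1 at chr13:115101965-115102214 (minus) and Itga4 at chr2:79255176-79255425 (plus). Capitals mark the letters searched on both strands: TGTGGT (RUNX core), AGGTCA and GGGTCA (retinoic acid receptor) and AGGTGT (T-box).
P2rx7: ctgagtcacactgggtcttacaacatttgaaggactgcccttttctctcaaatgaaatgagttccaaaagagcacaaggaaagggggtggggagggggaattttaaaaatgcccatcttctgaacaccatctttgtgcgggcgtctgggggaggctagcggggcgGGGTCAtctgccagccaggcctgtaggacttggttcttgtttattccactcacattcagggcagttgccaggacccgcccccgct
Ccr9: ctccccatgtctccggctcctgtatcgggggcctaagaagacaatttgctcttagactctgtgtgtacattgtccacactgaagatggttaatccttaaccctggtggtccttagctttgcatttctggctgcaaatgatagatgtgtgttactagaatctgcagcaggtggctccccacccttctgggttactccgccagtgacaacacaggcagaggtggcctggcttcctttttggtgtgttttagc
Itga1: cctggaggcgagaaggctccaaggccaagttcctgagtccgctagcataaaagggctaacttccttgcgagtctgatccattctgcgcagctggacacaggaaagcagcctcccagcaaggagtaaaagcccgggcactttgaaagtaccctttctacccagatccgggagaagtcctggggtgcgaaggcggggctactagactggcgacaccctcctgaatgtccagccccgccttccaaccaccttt
Itga4: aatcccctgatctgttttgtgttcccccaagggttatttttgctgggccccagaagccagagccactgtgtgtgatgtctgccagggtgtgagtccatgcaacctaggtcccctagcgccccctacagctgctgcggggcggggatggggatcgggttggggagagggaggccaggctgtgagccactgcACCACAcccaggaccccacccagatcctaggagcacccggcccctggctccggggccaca
P2rx7 holds GGGTCA, and Itga4 holds the RUNX letters on the other strand. Ccr9 and Itga1 hold none of the 4. Among all 32851 promoter windows of this length, 14.05% hold TGTGGT, 14.02% AGGTCA, 11.6% GGGTCA and 11.8% AGGTGT, so a match is a description of the letters and no more.

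Itga4 (chromosome 2, 79255426 to 79333123 of mm10, plus strand) encodes the α4 chain that pairs with β7 or β1. In the CD8 gate it was at 587 CPM in GVHD and 337 CPM in BM, 690 and 610 CPM in the macrophage libraries labelled IL34KO and WT, and 710 and 681 CPM in the T-cell libraries labelled IL34KO and WT. In the CD4 gate it was at 379 and 393 CPM in GVHD and BM, 446 and 763 CPM in the macrophage libraries labelled IL34KO and WT, and 725 and 765 CPM in the T-cell libraries labelled IL34KO and WT. The CD8 gate of BM was the lowest and the CD4 gate of the WT T-cell library the highest of the 12 values. In the T-cell libraries 79.9% (77.1 to 82.5) of CD8-gated cells labelled IL34KO and 78.0% (75.8 to 80.1) of WT ones had a UMI, against 4.55% and 6.17% of epithelial-gated cells.

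Itgb7 (chromosome 15, 102215995 to 102231944, minus strand) encodes the β7 chain shared by α4β7 and αEβ7. Its CD8-gate level was 98.7 CPM in GVHD and 154 CPM in BM, 87.1 and 81.9 CPM in the macrophage libraries labelled IL34KO and WT, and 62.8 and 55.3 CPM in the T-cell libraries labelled IL34KO and WT. In the CD4 gate it was at 52.4 CPM in GVHD and 233 CPM in the 11 cells of BM, 75.8 and 65.9 CPM in the macrophage libraries labelled IL34KO and WT, and 51.5 and 40.0 CPM in the T-cell libraries labelled IL34KO and WT. BM was thus the highest of the 6 libraries in both gates.

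Itgae (chromosome 11, 73090583 to 73147446, plus strand) encodes αE, the chain that tethers T cells to epithelium. Its CD8-gate level was 30.4 CPM in GVHD and 46.3 CPM in BM, 25.1 and 56.5 CPM in the macrophage libraries labelled IL34KO and WT, and 40.0 and 32.5 CPM in the T-cell libraries labelled IL34KO and WT. The CD4 gate had 8.07 and 14.6 CPM in GVHD and BM (2 and 1 UMIs), 10.6 CPM and 0 UMIs in the macrophage libraries labelled IL34KO and WT, and 8.21 and 6.89 CPM in the T-cell libraries labelled IL34KO and WT. Every CD8 value lay above every CD4 value.

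Itga1 (chromosome 13, 114953096 to 115101964, minus strand) encodes α1, the collagen-binding chain of resident T cells. The CD8 gate had 58.2 CPM in GVHD and 111 CPM in BM, 109 and 116 CPM in the macrophage libraries labelled IL34KO and WT, and 131 and 106 CPM in the T-cell libraries labelled IL34KO and WT. The CD4 gate had 137 CPM in GVHD and 72.8 CPM in BM, 67.0 and 20.8 CPM in the macrophage libraries labelled IL34KO and WT, and 53.7 and 47.3 CPM in the T-cell libraries labelled IL34KO and WT. GVHD was the one library in which the CD4 gate was above the CD8 gate. Pelo lies inside Itga1 on the same strand, and UMIs of the 2 genes may be shared.

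Ccr9 (chromosome 9, 123678439 to 123784330, plus strand), the receptor for CCL25, rested on few molecules: 156 UMIs over the 6 CD8 gates and 53 over the 6 CD4 gates. In the CD8 gate it was at 38.0 CPM in GVHD and 7.72 CPM in BM (15 and 3 UMIs), 20.1 and 5.65 CPM in the macrophage libraries labelled IL34KO and WT (12 and 2 UMIs), and 15.03 and 11.8 CPM in the T-cell libraries labelled IL34KO and WT. In the CD4 gate it was at 16.1 and 43.7 CPM in GVHD and BM (4 and 3 UMIs), 14.1 and 31.2 CPM in the macrophage libraries labelled IL34KO and WT, and 6.71 and 9.19 CPM in the T-cell libraries labelled IL34KO and WT. GVHD was highest in the CD8 gate. After thinning every cell to 1500 UMIs, 2.34% (1.41 to 3.63) of CD8-gated cells labelled IL34KO and 1.80% (1.17 to 2.64) of WT ones had a Ccr9 UMI, against 0.162% and 0.135% of epithelial-gated cells. Unthinned shares were 4.55% and 3.60% in the CD8 gate. Ccr9 overlaps the long noncoding gene Gm17200 on its own strand.

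Cd69 (chromosome 6, 129267325 to 129275436, minus strand), an early activation marker that also blocks exit, was at 387 CPM in GVHD and 311 CPM in BM in the CD8 gate, 236 and 319 CPM in the macrophage libraries labelled IL34KO and WT, and 243 and 208 CPM in those of T cells labelled IL34KO and WT. Among CD4-gated cells it was at 448 and 204 CPM in GVHD and BM, 273 and 288 CPM in the macrophage libraries labelled IL34KO and WT, and 240 and 216 CPM in the T-cell libraries labelled IL34KO and WT. GVHD was the highest of the 6 libraries in both gates. S1pr1, the receptor that CD69 opposes, was low in all gates of T cells, at 0 to 30.4 CPM in CD8 and 6.93 to 44.4 CPM in the 5 larger CD4 gates.

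P2rx7 (chromosome 5, 122643911 to 122691432, plus strand) was at 7.59 and 7.72 CPM in the CD8 gates of GVHD and BM (3 UMIs each), 15.1 and 11.3 CPM in the macrophage libraries labelled IL34KO and WT, and 9.66 and 7.26 CPM in the T-cell libraries labelled IL34KO and WT. In the CD4 gate it was at 16.1 and 43.7 CPM in GVHD and BM (4 and 3 UMIs), 44.1 and 13.9 CPM in the macrophage libraries labelled IL34KO and WT, and 18.7 and 20.7 CPM in the T-cell libraries labelled IL34KO and WT. Macrophages carry more of it, so free RNA counts here: scaled by Lyz2, it would give 6.70% to 49.7% of the P2rx7 level of the CD8 gates and 2.56% to 19.0% of that of the 5 larger CD4 gates. After thinning, 1.72% of CD8-gated cells labelled IL34KO and 1.08% of WT ones had a P2rx7 UMI, against 1.29% and 0.675% of epithelial-gated cells, so in CD8 cells as a whole these shares could not be told from background. Unthinned they were 3.30% and 2.53% in CD8-gated cells and 4.68% and 4.24% in epithelial-gated cells, which were deeper (medians of 7156.5 and 10514 UMIs).

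**Figure D1:**
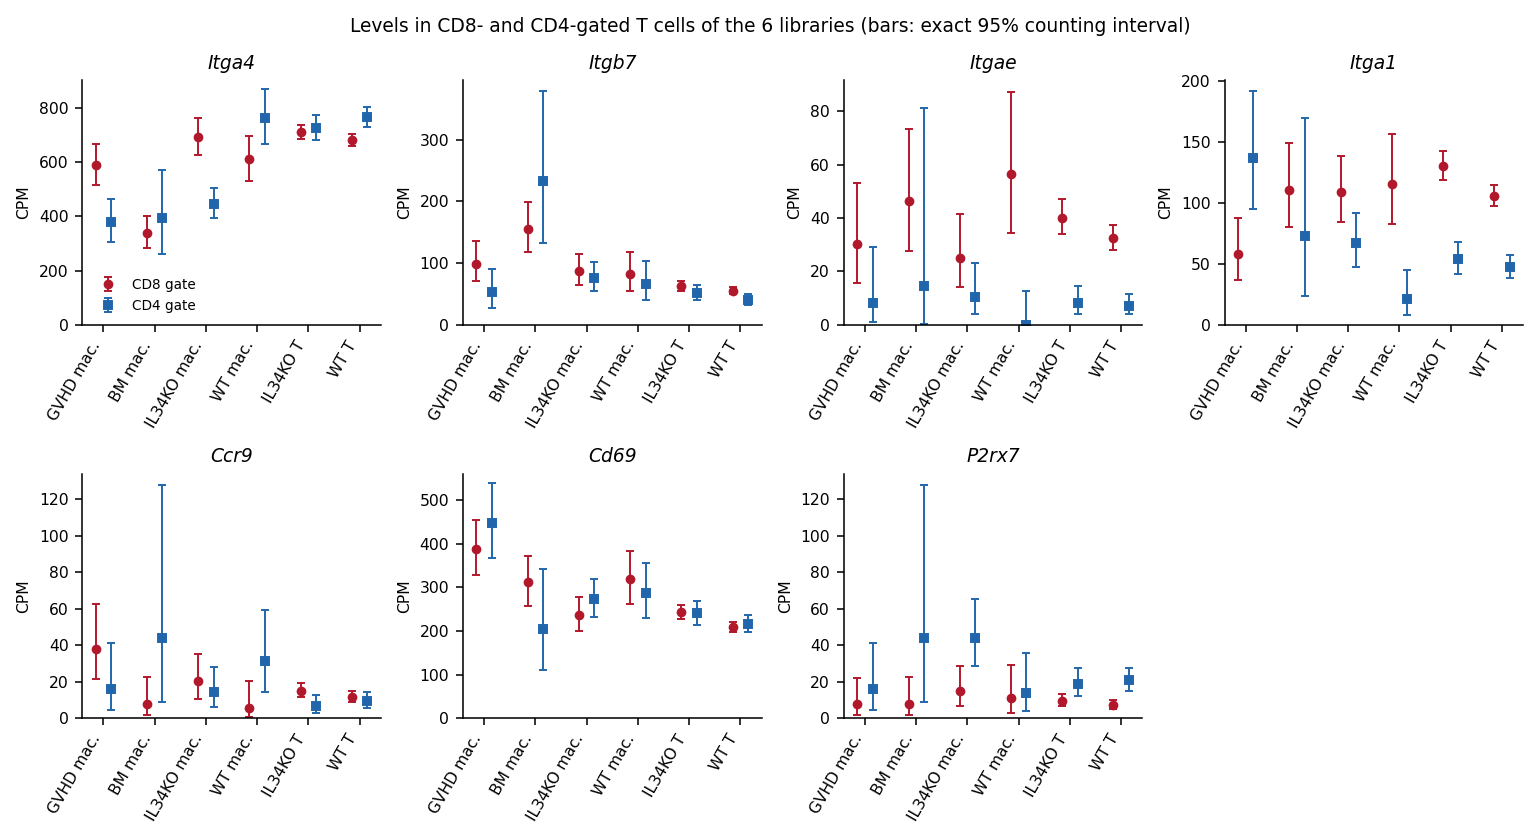
Level of each of the 7 genes (CPM, linear axis from 0) in CD8-gated (red circles) and CD4-gated (blue squares) T cells of the 6 libraries, with exact 95% counting intervals. Itgae is higher in the CD8 gate of every library, and the widest bars belong to the 11 CD4-gated cells of BM.

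Whether CD8 and CD4 cells differ was tested within libraries, since each library gives both. Itgae was higher in the CD8 gate of all 5 libraries with at least 20 cells in both gates, by 2.27 ± 0.29 (SE) on the log2 scale (adjusted p = 4.08e-05, edgeR quasi-likelihood test with library as a block). Within libraries the fold was 3.76 (0.838 to 34.6) in GVHD and 2.38 (0.871 to 7.48) in the macrophage library labelled IL34KO, intervals that held 1. It was at least 5.43 in the WT macrophage library. In the T-cell libraries it was 4.87 (2.65 to 9.97) labelled IL34KO and 4.71 (2.79 to 8.59) in WT. Itga1 was higher by 0.95 ± 0.25 (adjusted p = 0.0201, edgeR). Its fold was 5.56, 1.63, 2.43 and 2.24 in the WT macrophage library, the macrophage library labelled IL34KO and the T-cell libraries labelled IL34KO and WT, but 0.424 (0.239 to 0.742) in GVHD. The exact sign-flip permutation test over the 5 libraries, two-sided, gave p = 0.0625 for Itgae, the smallest it allows, and p = 0.25 for Itga1. The 6 NK and innate lymphoid markers, of which 3 to 5 had a UMI, also summed higher in the CD8 gate of each of the 5 libraries (96.2 to 378 CPM, against 68.6 to 148 CPM in the CD4 gate), and their part in the result was not tested. The set includes Fcer1g and Tyrobp, which stood at 1225 to 2165 and 1151 to 1735 CPM in macrophage-gated cells. Here and below, its sum is therefore not particular to NK and innate lymphoid cells.

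The Itga1 call depended on the setting. It was lost with DESeq2 (adjusted p = 0.24), without the library block (adjusted p = 0.0679), without the T-cell library labelled IL34KO (adjusted p = 0.245) and without the WT T-cell library (adjusted p = 0.242). Without GVHD the difference was 1.23 (adjusted p = 0.000172, edgeR). Itgae fell below the filter on low counts with the strict T gate and without cycling cells, so those fits give no value for it.

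The other chains differed less. Itgb7 was 0.41 ± 0.13 higher in the CD8 gate and above the CD4 gate in 5 of 5 libraries, with adjusted p = 0.0612 (edgeR). In edgeR it passed with the strict T gate (0.56, adjusted p = 0.0263), without the macrophage library labelled IL34KO (0.45, adjusted p = 0.0445) and without cycling cells (0.70, adjusted p = 0.00693), the last a setting chosen after seeing the data. In this CD8 gate against CD4 gate fit, Itga4 (0.13 ± 0.13, adjusted p = 0.62, edgeR) and Cd69 (-0.04 ± 0.10, adjusted p = 0.886, edgeR) did not pass. Thus 2 of the 5 members tested were called, both higher in CD8, where 11.3% of all 6718 genes tested were called (305 or 4.54% higher, and 451 lower). Ccr9 and P2rx7 fell below the filter on low counts. With no filter P2rx7 was lower in the CD8 gate by 1.21 on the log2 scale (adjusted p = 8.52e-05, edgeR, and 0.0761 with DESeq2), in 5 of 5 libraries, and Ccr9 differed by 0.48 (adjusted p = 0.514, edgeR). The P2rx7 ratio rested on 3 against 4 UMIs in GVHD (0.471, 0.0689 to 2.78). In the WT macrophage library it rested on 4 against 4 (0.814, 0.152 to 4.37). Both intervals held 1.

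**Figure D2:**
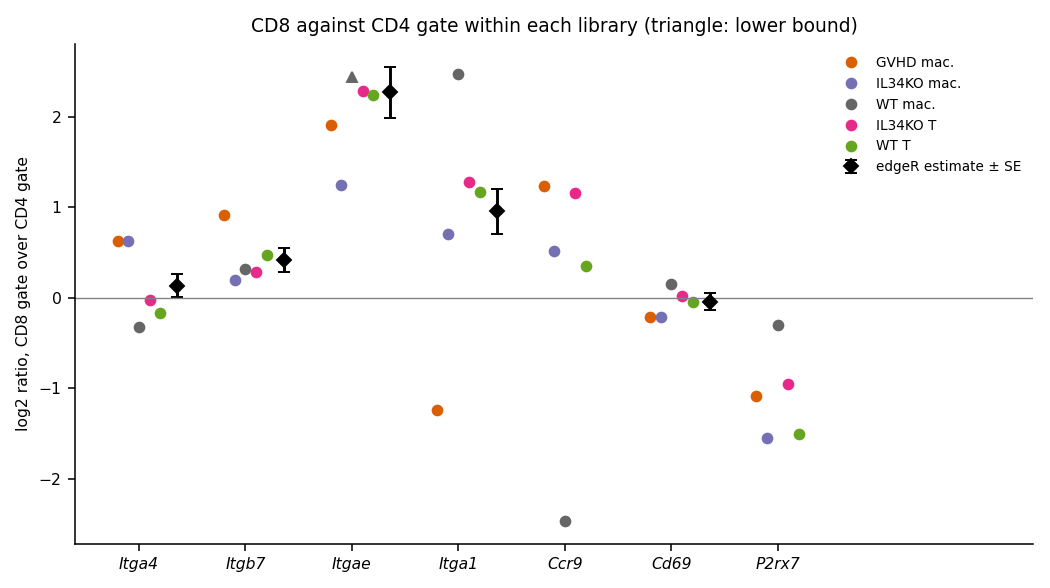
Log2 ratio of the CD8-gate level over the CD4-gate level within each of 5 libraries (coloured points; the triangle is a lower bound because the CD4 gate had 0 UMIs) and the edgeR estimate with its standard error (black diamond, 5 genes that passed the filter). All Itgae points lie above 1, while Itga1 in GVHD and Ccr9 in the WT macrophage library lie below 0.

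Genes of related roles gave a background to this contrast; the lists were chosen with earlier results of these data known. Of the 9 egress and lymph node homing genes tested, 4 were lower in the CD8 gate and none higher: Ccr7, the lymph node homing receptor (-1.56), Tcf7, a transcription factor of memory cells (-1.04), Cxcr4 (-0.93) and Il7r, the interleukin 7 receptor (-0.83); their edgeR adjusted p ranged up to 0.0435. Of 6 other homing receptors 2 were higher, among them Selplg (0.37), a ligand of selectins, and 4 did not pass. Among 7 other integrin genes only Itgax (1.37), known best from dendritic cells and also carried by activated CD8 cells, passed. Of 17 residency regulators and effectors, 6 were higher and 5 lower: Gzma (3.08) and Gzmb (2.05), the granzymes, led the first group, and Xcl1 (-1.63), a chemokine of lymphocytes, the second. Among 10 genes of the TGF-β and retinoic acid response, Smad3 (-0.49) alone passed. Of 7 genes handling extracellular ATP and NAD, Entpd1 (0.75) and Cd38 (0.62) were higher and Adora2a (-0.68) lower. List medians ran from -0.41 (egress) to 0.34 (ATP and NAD), beside 0.01 over all genes.

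CD8 cells with an Itgae UMI were then set against those without one, in the 2 T-cell libraries with at least 20 cells of each kind: 83 against 797 cells in the library labelled IL34KO and 117 against 1385 in WT. Of the other 6 members 4 were higher in Itgae-positive cells, where 3.65% of the 9491 genes tested were called (204 or 2.15% higher, and 142 lower). With 2 libraries the exact sign-flip permutation test could give no p under 0.5. The edgeR p-values of this split therefore say little of the spread between libraries. A cell without a UMI may still carry Itgae, and median depths were 4024 and 3351 UMIs for Itgae-positive and Itgae-negative cells in the library labelled IL34KO, and 3187 and 3225 in WT.

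P2rx7 stood at 34.9 CPM in Itgae-positive and 6.62 CPM in Itgae-negative cells of the library labelled IL34KO, and at 37.4 and 4.69 CPM in those of WT. This is a log2 ratio of 2.69 ± 0.39 (SE; adjusted p = 1.13e-07, edgeR with library as a block). Scaled by Lyz2, free macrophage RNA would give 6.71% and 7.94% of the level in the Itgae-positive cells of the 2 libraries, but 35.2% and 78.1% of that in the Itgae-negative cells. Ccr9 stood at 52.3 and 10.5 CPM in positive and negative cells labelled IL34KO and at 35.2 and 9.76 CPM in WT, a log2 ratio of 2.06 ± 0.33 (adjusted p = 2.21e-06, edgeR). Both genes rose in each library in unthinned counts, although each rests on 14 to 21 UMIs in the positive cells. After thinning, P2rx7 had a UMI in 0 of 55 Itgae-positive WT cells (0% to 6.49%), against 1.12% of 1336 Itgae-negative ones. In the library labelled IL34KO it had one in 4 of 46 positive cells (8.70%), against 1.31% of 766 negative ones. The P2rx7 rise in WT was thus not seen in thinned counts, where positive cells were few. Thinned Ccr9 had a UMI in 3 of 55 positive WT cells (5.45%, 1.14 to 15.1), against 1.65% of 1336 negative ones. In the library labelled IL34KO it had one in 2 of 46 positive cells (4.35%, 0.531 to 14.8), against 2.22% of 766 negative ones. Each interval held the share of the negative cells, so the Ccr9 rise was not settled by thinned counts.

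Itga1 was at 306 and 109 CPM in positive and negative cells labelled IL34KO and at 231 and 95.5 CPM in WT, with a log2 ratio of 1.36 ± 0.15 (adjusted p = 1.12e-12, edgeR). Itgb7, the partner chain of αE, was at 99.6 and 58.4 CPM in positive and negative cells labelled IL34KO and at 90.1 and 52.4 CPM in WT, a log2 ratio of 0.76 ± 0.21 (adjusted p = 0.0208, edgeR). Itga1 and Itgb7 thus stood higher in the Itgae-positive cells of both libraries.

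Cd69 (0.32 ± 0.13, adjusted p = 0.23, edgeR) and Itga4 (-0.11 ± 0.10, adjusted p = 0.727, edgeR) did not pass. Cd69 was at 281 and 239 CPM in positive and negative cells labelled IL34KO and at 273 and 203 CPM in WT. Itga4 was at 615 and 722 CPM in positive and negative cells labelled IL34KO and at 697 and 679 CPM in WT.

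These calls varied with the setting. The 346 calls fell to 50 with DESeq2, which gave no adjusted p for P2rx7, Ccr9 and Itgb7. Ccr9 missed the threshold when cells were split on thinned counts (adjusted p = 0.0533) and without cycling cells (adjusted p = 0.055), and Itgb7 with the strict T gate (adjusted p = 0.327), with no filter (adjusted p = 0.0664), without the library block (adjusted p = 0.0637) and without cycling cells (adjusted p = 0.234), all with edgeR.

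The 4 macrophage libraries held only 4 to 8 Itgae-positive CD8 cells each and did not enter that fit. Summed over the 4 (26 positive and 268 negative cells), Ccr9 was at 107 and 9.52 CPM, a ratio of 11.3 (5.29 to 24.2), P2rx7 at 50.4 and 6.98 CPM, a ratio of 7.23 (2.52 to 19.7), and Itga1 at 258 and 83.1 CPM, a ratio of 3.11 (2.13 to 4.45). Itgb7 had a ratio of 1.68 (1.06 to 2.55) and Itga4 of 0.802 (0.624 to 1.02). Cd69 was at 611 and 273 CPM, a ratio of 2.24 (1.77 to 2.79), and with all 6 libraries in the edgeR fit, chosen after seeing the data, its difference passed (0.73, adjusted p = 0.0279). Most Ccr9 UMIs of the positive cells came from the macrophage library labelled IL34KO (9 UMIs in 8 cells) and from GVHD (6 in 4 cells), and BM had none in 7 cells.

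**Figure D3:**
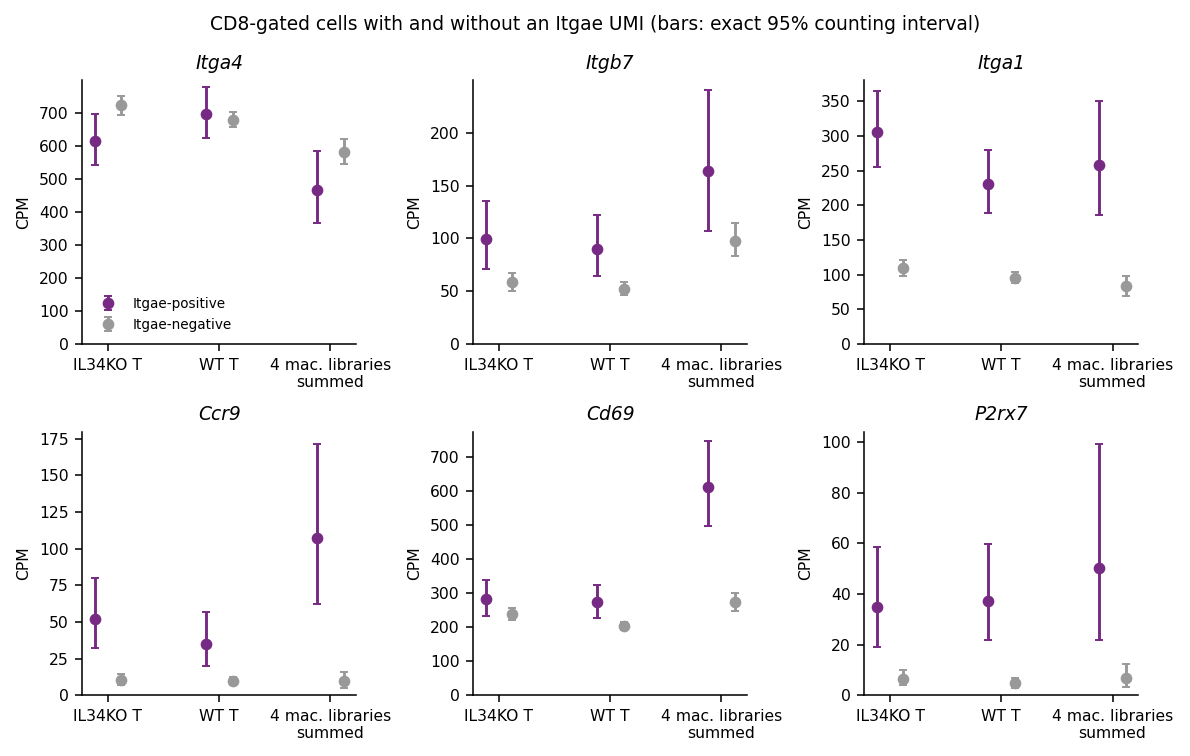
Level (CPM, linear axis from 0) of 6 members in CD8-gated cells with (purple) and without (grey) an Itgae UMI, in the T-cell libraries labelled IL34KO and WT and in the 4 macrophage libraries summed, with exact 95% counting intervals. Itga1, Ccr9 and P2rx7 lie apart in all 3 sets, and Itga4 does not.

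Within the same split, 6 of 18 residency genes were higher and none lower. Gzma (2.17 ± 0.06, adjusted p = 2.16e-58, edgeR) and Gzmb (1.31) led, with Ahr (0.89), a sensor needed by intraepithelial lymphocytes, Rgs1 (0.83), Cd101 (0.77) and Cd160 (0.59). Of 10 egress genes, Il7r was higher (1.25, adjusted p = 9.96e-05, edgeR) and the rest did not pass; Klf2, the factor that drives S1pr1, was at -0.57 (adjusted p = 0.148, edgeR). None of 7 other homing receptors and none of 9 other integrin genes passed in edgeR, while 3 and 4 of them had an unadjusted p under 0.05, and DESeq2 called 0 of the 4 receptors and 0 of the 4 integrin genes to which it gave an adjusted p. Of 11 TGF-β and retinoic acid genes, Tgfbr1, a TGF-β receptor chain, was higher (1.08) and Tgfb1 lower (-0.59). Of 10 ATP and NAD genes, P2ry14 (2.10) and Nt5e (1.08), the enzyme that makes adenosine, were higher. DESeq2 called 3 of 12 residency genes, 0 of 3 egress genes, 0 of 5 TGF-β and retinoic acid genes and 0 of 3 ATP and NAD genes to which it gave an adjusted p. The residency list had a median of 0.33 and the egress list of -0.23, beside -0.01 over all genes.

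Markers of other cells moved with this split. Of the 6 NK and innate lymphoid markers, Fcer1g (0.77), Tyrobp (0.79) and Klrb1c (1.68) were higher in Itgae-positive cells (edgeR adjusted p up to 0.0391), while Ncr1 and Il22 had no UMI in them. Their summed level was 241 and 129 CPM in positive and negative cells labelled IL34KO and 345 and 201 CPM in WT. Most of it came from Fcer1g and Tyrobp, which macrophages also carry. In positive cells these had 53 and 39 of 97 UMIs labelled IL34KO and 101 and 46 of 157 in WT. Klrb1c had 5 and 10. The γδ T-cell markers summed to 7.47 and 6.02 CPM in positive and negative cells labelled IL34KO and 13.2 and 11.8 CPM in WT, and Cd8a, Cd8b1, Cd3e, Trac, Lyz2 and Epcam did not pass. The part of the NK markers in the result was not tested.

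Between libraries, GVHD and BM differed in several members, with no replicate to set them against. Both libraries were sorted for macrophages, so the T-gated cells compared are those that the sort let through. In the CD8 gate, of the 5 members with at least 20 UMIs over both libraries, Itga4 was 1.74-fold (1.40 to 2.18) that of BM, while Itgb7 (0.64, 0.416 to 0.973), Itga1 (0.526, 0.303 to 0.893) and Itgae (0.656, 0.288 to 1.44) were past 1.5-fold lower. The interval of Itgae held 1. Cd69 stood at 1.24 (0.974 to 1.59). That is 1 higher and 3 lower of 5, where 32.4% of 5495 genes were past 1.5-fold (19.1% higher and 13.2% lower). The Itga4 ratio turned to a log2 value of -0.20 when the T gate had no limit on other cells' markers. Ccr9, at 4.92-fold (1.39 to 26.5), rested on 15 and 3 UMIs, and P2rx7 had 3 in each. In these CD8 gates NK and innate lymphoid markers summed to 96.2 CPM in GVHD and 38.6 CPM in BM and γδ T-cell markers to 22.8 and 2.57 CPM, and their part in the result was not tested.

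Of CD4-gated cells BM held only 11. Cd69 was 2.20-fold (1.26 to 4.15) and Itga1 1.88-fold (0.733 to 6.17) that of BM, Itgb7 0.225-fold (0.0996 to 0.499), and Itga4 0.964-fold (0.623 to 1.54). So 3 of 4 measured members were past 1.5-fold, where 45.3% of 3127 genes were (27.6% higher and 17.7% lower).

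Macrophage-gated cells of GVHD and BM were compared after the levels were seen. Leaving the shared barcodes out of BM took its macrophage gate from 2987 to 1704 cells. With them kept, 5 values of this comparison moved and 3 stayed. With them dropped from both libraries, 4 moved and 4 stayed. Itga1 was at 32.0 CPM in GVHD and 6.04 CPM in BM, a 5.31-fold difference (4.43 to 6.40), and Itgb7 at 115 and 27.3 CPM, 4.21-fold (3.86 to 4.59). Cd69 was 1.83-fold (1.70 to 1.96) and Itga4 1.68-fold (1.61 to 1.76) higher in GVHD. P2rx7 went the other way, with 118 CPM in GVHD and 219 CPM in BM, a ratio of 0.536 (0.514 to 0.559). Itgae (1.06, 0.583 to 1.99) and Ccr9 (1.15, 0.865 to 1.54) had intervals that held 1. Itgb7 and Itga1 were thus higher in GVHD macrophages and lower in GVHD CD8 cells than in those of BM. Of the 7 members 5 were past 1.5-fold, where 41.5% of 14556 genes were (16.4% higher and 25.1% lower).

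Libraries labelled IL34KO could be set against WT in both sorts. In the T-cell libraries, none of the 7 members was past 1.5-fold in either gate, where 9.69% of 11054 genes in the CD8 gate (5.25% higher and 4.44% lower) and 12.9% of 9283 in the CD4 gate (6.84% higher and 6.03% lower) were. All 7 CD8 ratios were above 1. Itga1 was 1.23-fold (1.09 to 1.39), Cd69 1.17-fold (1.07 to 1.27), Itgae 1.23-fold (0.986 to 1.53), Itgb7 1.14-fold (0.955 to 1.35) and Itga4 1.04-fold (0.993 to 1.10) that of WT. Ccr9 (1.28, 0.881 to 1.85) and P2rx7 (1.33, 0.828 to 2.13) had wider intervals. The members' median log2 ratio was 0.30, beside 0.07 over all genes. Ratios in the CD4 gate ran from 0.73 (Ccr9, 0.293 to 1.68) to 1.29 (Itgb7, 0.925 to 1.79), and every interval held 1.

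In the macrophage libraries, which were not sorted for T cells, the CD8 gates are smaller (123 cells labelled IL34KO, 52 WT). Itgae was 0.445-fold (0.212 to 0.915) that of WT and Cd69 0.741-fold (0.574 to 0.957), while Itga4 (1.13), Itgb7 (1.06) and Itga1 (0.941) had intervals holding 1. Summed neutrophil markers (3 and 4 of 4 genes with a UMI) stood at 93.8 CPM in the CD8 gate labelled IL34KO and 486 CPM in that of WT, and NK and innate lymphoid markers (3 of 6 genes in each) at 236 and 378 CPM; their part in the result was not tested. Of 5 measured members 1 was past 1.5-fold, where 21.6% of 6085 genes were. Among CD4-gated cells Itga4 was 0.585-fold (0.486 to 0.704), Itga1 3.22-fold (1.35 to 9.32) and P2rx7 3.18-fold (1.10 to 12.6) that of WT, so 3 of 5 measured members were past 1.5-fold, where 26.5% of 5823 genes were. In the T-cell libraries Itgae and Cd69 in the CD8 gate and P2rx7 in the CD4 gate stood on the other side of 1, and the differences between the 2 sorts were not tested.

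P2rx7 in macrophage-gated cells stood at 42.8 CPM in the macrophage library labelled IL34KO (3175 cells) and 91.4 CPM in the WT one (3111 cells), a ratio of 0.468 (0.442 to 0.496). The macrophage-gated cells sorted with T cells had 111 CPM labelled IL34KO (3679 cells) and 114 CPM in WT (6726 cells), a ratio of 0.975 (0.933 to 1.02). It was the only 1 of 7 past 1.5-fold in the first pair, where 11.8% of 14691 genes were (4.86% higher and 6.94% lower). None was in the second, where 7.71% of 14429 were (4.17% higher and 3.54% lower).

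**Figure D4:**
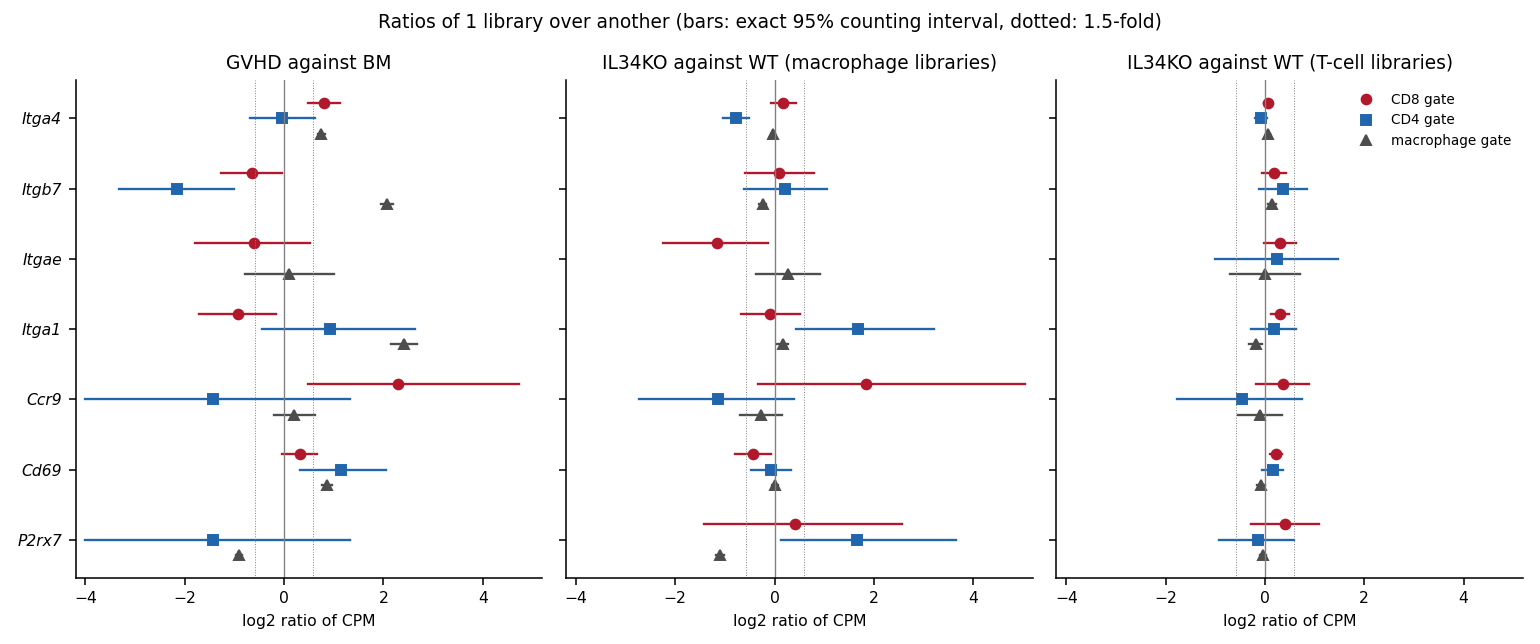
Log2 ratios of CPM between libraries (GVHD over BM, IL34KO-labelled over WT macrophage libraries, IL34KO-labelled over WT T-cell libraries) for the 7 genes in the CD8, CD4 and macrophage gates, with exact 95% counting intervals and dotted lines at 1.5-fold; genes at or under 3 UMIs in both libraries, and the gene with 0 UMIs in one, have no point. Points lie within the dotted lines in the T-cell libraries, and in macrophages Itgb7 and Itga1 of GVHD over BM lie farthest above 0.

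Across cell types the members split by where they stand highest. In the test of T-gated against macrophage-gated cells over 6 libraries, Itgae (log2 4.22 ± 0.18), Ccr9 (1.97 ± 0.20), Itga1 (1.39 ± 0.26), Cd69 (1.35 ± 0.28) and Itga4 (0.59 ± 0.13) were higher in T cells, with edgeR adjusted p between 3.88e-08 and 0.00298. P2rx7 was lower by 3.29 ± 0.36 (adjusted p = 2.61e-05, edgeR), and each of these 6 kept its direction in 6 of 6 libraries. Itgb7 did not pass (-0.18 ± 0.42, adjusted p = 0.716, edgeR): BM stood apart at 7.71-fold higher in T cells, the other libraries ran from 0.73 to 1.18, and without BM the difference was -0.61 (adjusted p = 0.000156, edgeR). Of 13396 genes tested 68.5% were called (30.5% higher), so 6 of 7 members is near that share. Itga4 missed the threshold without the library block (adjusted p = 0.109, edgeR) and with no filter on low counts (adjusted p = 0.0722, edgeR).

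Levels by gate set the members apart. Itgae was at 25.1 to 56.5 CPM in the CD8 gate and at 0.856 to 1.15 CPM in macrophages and 0.648 to 1.98 CPM in epithelium. Dendritic-gated cells, in which CD103 marks a migratory subset, ranged over 46.4 and 78.2 CPM in the T-cell libraries labelled IL34KO and WT, against 2.68 and 3.42 CPM in the macrophage libraries labelled IL34KO and WT and 0 UMIs in the 25 cells of GVHD. The sort for CD11b and CD64 moves with that gap, and its part was not tested. Cd69 was at 208 to 387 CPM in CD8 and 216 to 448 CPM in CD4 gates, overlapping each other, then 50.1 to 116 CPM in macrophages and 78.2 to 150 CPM in dendritic cells, which overlap too, and at most 4.42 CPM in epithelium and stroma. P2rx7 was at 42.8 to 219 CPM in macrophages and 16.8 to 40.1 CPM in dendritic cells, but in the macrophage library labelled IL34KO its CD4 gate (44.1 CPM) was about level with its macrophages (42.8 CPM). Itga1 was highest in stroma of the T-cell libraries (283 and 361 CPM labelled IL34KO and WT), above the CD8 gate (58.2 to 131 CPM), while the stroma of BM (70.2 CPM) lay within that range. Itga4 in dendritic cells (415 to 538 CPM) lay within the range of the T-cell gates.

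**Figure D5:**
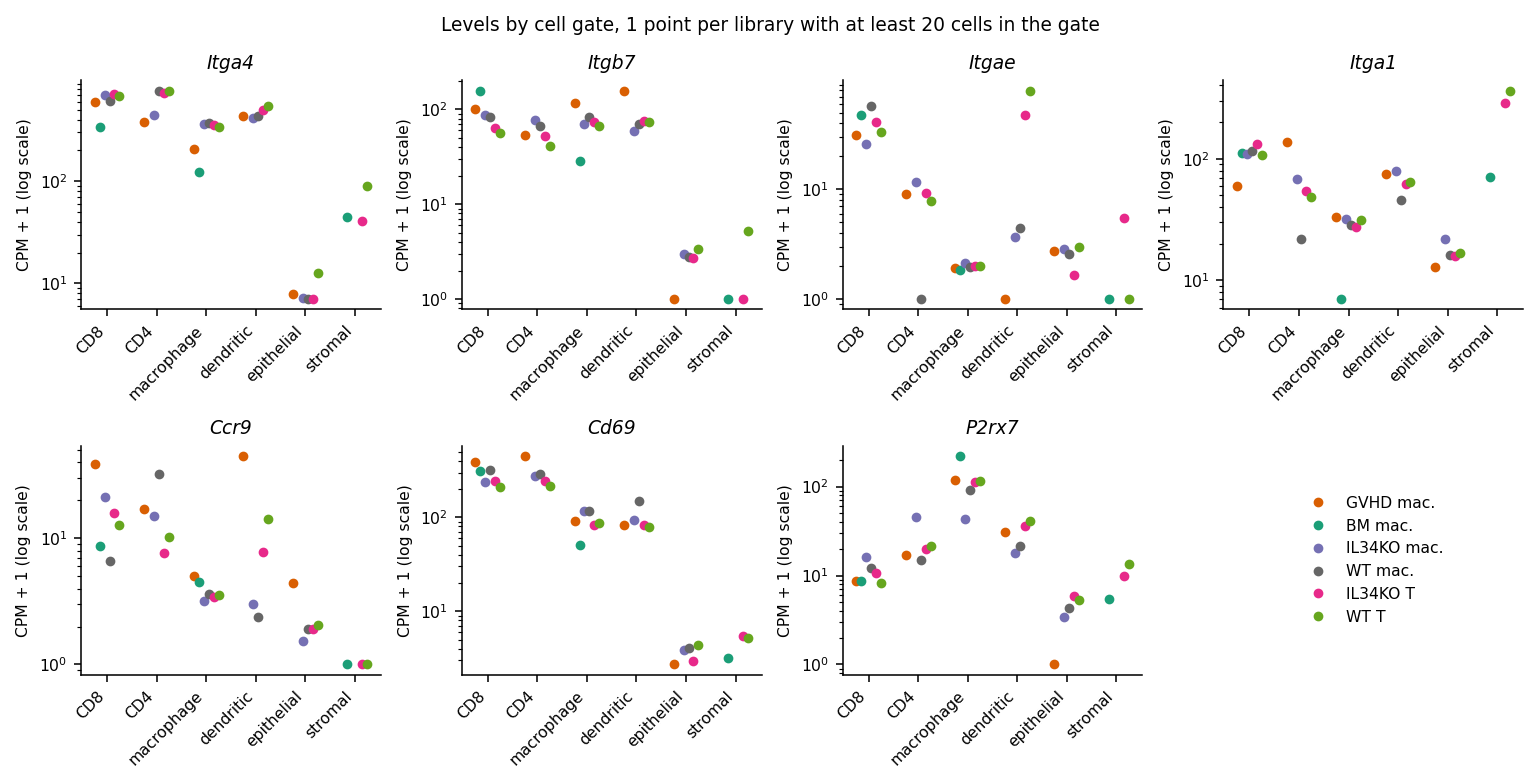
Level of each gene (CPM + 1, log axis) by cell gate, 1 point per library with at least 20 cells in the gate, coloured by library. Itgae and Ccr9 stand low in macrophages and epithelium, P2rx7 stands high in macrophages, and Itgae in dendritic-gated cells is high in the T-cell libraries only.

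The partners that these receptors bind were read by level only. Cdh1, E-cadherin, the ligand of αEβ7, was at 487 to 738 CPM in the 5 epithelial gates with at least 20 cells and 0.766 to 5.73 CPM in macrophages. Col4a1, the collagen IV chain bound by α1β1, was at 1044 to 1125 CPM in 3 stromal gates. Vcam1, a ligand of α4β1, was at 257 to 411 CPM in stroma and 127 to 320 CPM in macrophages, where it was 0.447-fold (0.430 to 0.463) in GVHD that of BM. Madcam1, the vessel ligand of α4β7, had 18 UMIs in the stroma of the WT T-cell library (75.5 CPM) and none in the other 2 stromal gates. Ccl25, the CCR9 ligand, was at 10.3 to 24.0 CPM in epithelium, 11.01 to 13.7 CPM in macrophages and 10.3 to 26.3 CPM in the CD8 gate, levels that do not single out a source.

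Over the 11 CD8 and CD4 gates with at least 20 cells, from 6 libraries, the gene most like each member was found by Pearson correlation of log2(CPM + 10) among 5975 genes, as a description. These were Tmem126a for Itga4 (r = 0.96), Ythdc1 for Itgb7 (0.91), Klk8 for Itgae (0.96), Anapc7 for Itga1 (0.90), Vopp1 for Ccr9 (0.92), Hspa1a for Cd69 (0.97) and Lta for P2rx7 (0.93). Among the members, Itgae and Itga1 were the most alike (0.73). Gates of a library share its depth and its free RNA, and small gates weigh as much as large ones.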

How the data were processed

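Counts of UMIs per gene and barcode were deposited by the authors as 1 filtered 10x matrix per library, made with Cell Ranger 7.0.1 against mm10, per the submitters' processing notes; the labels name both 5′ and 3′ kits, without saying which library had which. Cells needed at least 500 genes and no more than 10% mitochondrial UMIs. Doublets were called with Scrublet (scanpy 1.11.5) at 0.8% per 1000 barcodes; it marked none in the 4 macrophage libraries, where 90 to 463 cells with the highest scores were removed, and 564 and 1164 in the T-cell libraries. The kept cells numbered 2608 to 12897 per library, before shared barcodes were left out of BM.

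UMIs were summed per library and gate and given as CPM; the T, dendritic, macrophage, epithelial and stromal gates used the rule given for T cells. Differences within libraries were tested with edgeR 4.0.16 (quasi-likelihood, library as a block, at least 20 cells per arm, Benjamini-Hochberg over all genes tested); DESeq2 1.42.0 was an alternative. The labels do not say whether a library is 1 animal or whether libraries share animals, so these p-values measure the spread between libraries. The Itgae split had only 2 libraries, too few for its p-values to measure that spread. Between single libraries, ratios past 1.5-fold were counted among genes with at least 20 UMIs, with exact binomial intervals from SciPy 1.17.1. A lower bound used a floor of 3 counts. On simulated counts the CD8 and CD4 test found 90 of 91 genes changed 2-fold (98.9%) among 6712 tested. The Itgae test found 52 of 100 genes changed 2-fold and 94 of 100 changed 4-fold, among 9484 tested. These shares describe the simulated counts and need not hold for the real ones. Members and lists were chosen with earlier results of these data known. Named genes were all members, up to 4 genes per list lying farthest from 0 on the side of its median, and other list genes that were called. Alternatives changed the filters, doublets, gates, scaling, shared barcodes and libraries. Some genes of the lists and marker sets are counted but not reported here by name.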

Additional observations from a re-analysis of the deposited data

Results flagged for a closer look

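Of 14 sets of 5 or 6 libraries' ratios examined for a library far from the others, 3 had one, and chance gives about 1 in 20. For Ccr9 the CD8 over CD4 log2 ratio of the WT macrophage library (-2.47) lay far below those of the other 4 libraries, on 2 and 9 UMIs. For Itgb7 and Itga1 the T over macrophage log2 ratio of BM (2.95 and 3.52) lay far above those of the other 5 libraries. BM macrophages had the lowest level of both genes. The T gate of BM also had the highest Itgb7 level, 210 CPM against 54.3 to 83.7 CPM in the other 5 libraries. Its Itga1 level was the lowest, at 69.2 CPM.

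The ratio of IL34KO-labelled to WT libraries went opposite ways in the macrophage and T-cell libraries for 3 genes, with intervals on either side of 0; these differences were not tested. Cd69 in the CD8 gate had a log2 ratio of -0.43 in the macrophage libraries and 0.22 in the T-cell libraries. In macrophage-gated cells Itgb7 had -0.24 and 0.14, and Itga1 had 0.16 and -0.18.

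Stromal-gated cells, which entered no test, held Itga4 and Itga1 above the epithelial-gated cells of the same library. Itga4 stood at 39.8 CPM in the T-cell library labelled IL34KO and 88.1 CPM in WT, and Itga1 at 283 and 361 CPM.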

How the results depend on the processing

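Of the members' values under all alternatives, 402 were counted as unchanged, 15 as moved and 6 as reversed, while 13 lost and 4 gained a call. In the added macrophage comparisons 205 were counted as unchanged and 29 as moved, while 2 lost and 1 gained a call. For ratios between libraries, unchanged did not always mean the same side of 1.5-fold. All 39 values under the stricter cell filter were counted as unchanged. Yet that filter changed how many members were past 1.5-fold in CD4 cells of the T-cell libraries. In each case the cause was not tested. Reversals were Itga4 in GVHD against BM CD8 cells (log2 -0.20 with no limit on other cells' markers), Itga4 in CD8 against CD4 (-0.011 without the macrophage library labelled IL34KO, with a range of -0.011 to 0.25 over libraries left out, and -0.0061 without cycling cells) and Cd69 in CD8 against CD4 (0.087 with the strict T gate, 0.020 with all 6 libraries, 0.075 without cycling cells). Settings with all 6 libraries or without cycling cells in these tests were chosen after seeing the data.

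Genes called for the CD8 gate against CD4 gate numbered 756, against 1173 with no filter and 384 to 1120 when 1 library was left out; 384 was without the WT T-cell library and 390 without the one labelled IL34KO. The 9170 calls for the T gate against macrophage gate ranged over 7907 to 10170. The 346 calls of the Itgae split numbered 50 with DESeq2, 91 with the strict T gate, 161 when split on thinned counts, 79 with all 6 libraries and 102 without cycling cells; with no filter they were 142 higher and 223 lower. Leaving a library out of that split could not be done, since 1 library would remain. Without the library as a replicate block, calls numbered 483 for CD8 against CD4, 101 for the Itgae split and 3881 higher and 4819 lower for the T gate against macrophage gate.

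No paired analysis was possible because the GVHD, BM, IL34KO-labelled and WT groups hold 1 library each. Members past 1.5-fold, of all 7 whatever their UMIs, numbered 5 for GVHD against BM in CD8 cells, and 3 with the strict T gate or with each cell weighted equally. In CD4 cells they numbered 5, and 3 without cycling cells or 2 with shared barcodes dropped from both libraries. With shared barcodes dropped from both, the Itgae ratio in CD8 cells was -2.32 on the log2 scale. For the macrophage libraries labelled IL34KO against WT they numbered 2 in CD8 cells and 5 with the strict T gate, and 4 in CD4 cells and 2 without cycling cells. For the T-cell libraries they numbered 0 in CD8 cells and 1 with no limit on other markers or with each cell weighted equally, and 0 in CD4 cells, 2 with the stricter cell filter and 1 without cycling cells. A comparison of Foxp3-positive cells was not run, since no library held 20 of them. Depth limits Ccr9 and P2rx7 most, with 156 and 97 UMIs over the 6 CD8 gates.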

Other observations

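Outside the lists, the strongest differences between CD8 cells with and without an Itgae UMI were named after their values were seen. Klra5, an NK-family receptor gene, was higher in Itgae-positive cells by 4.74 on the log2 scale (adjusted p = 5.2e-34, edgeR), with 54 UMIs in 10 positive cells labelled IL34KO and 89 in 13 of WT. Cd200r2 (2.65), Cd7 (1.69), Gzmc (2.14) and Pag1 (1.41) were also higher, in both libraries. Ccl3 (-1.09), Ifng (-1.10), which encodes interferon γ, and Pdcd1 (-0.85), which encodes PD-1, were lower in both. Prickle1 had 0 UMIs in the Itgae-positive cells, against 106 and 110 UMIs in the Itgae-negative cells labelled IL34KO and WT. Svs5, a seminal vesicle gene, was called higher, yet the libraries went opposite ways: WT had 405 UMIs in positive and 158 in negative cells (890 and 29.6 CPM), and the library labelled IL34KO had 1 and 34 UMIs (2.49 and 10.2 CPM).

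In the T-cell libraries 8.75% of CD8-gated cells labelled IL34KO and 5.46% of WT ones had UMIs of 4 or more of the 7 members, against 1.59% and 1.68% of CD4-gated cells. These shares were not thinned to 1 depth.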
